A study of Petromyzon marinus with 21 samples.

Results

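Synaptonemal complex protein 1 (SYCP1) was represented by 3 of the 43 target probes that the study read in sea lamprey RNA. The probes are comp288706, comp292635 and comp292635_9, and the file gives all of them the same annotation, synaptonemal complex protein 1 with the remark that it is a cancer-testis antigen. A myosin-7B probe, comp292635_13, was added because its identifier shares the stem comp292635 with 2 of the SYCP1 probes, which makes 4 probes in all. What the stem and its suffixes mean is not given in the sources used here, so whether these probes read 1 transcript, several forms of it or different genes was not settled. The probe names were used as the file has them, and no probe sequence was used here.

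SYCP1 builds the transverse filaments of the synaptonemal complex, the ladder of protein that holds paired chromosomes together during meiosis. In adult mammals its transcript is known mainly from germ cells in meiosis, and its appearance in tumours gave it the name of a cancer-testis antigen. Myosin-7B is a myosin heavy chain known in other vertebrates from striated muscle. Somatic cells of the sea lamprey discard part of the germline genome early in embryogenesis.

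The RNA came from adult testes and from whole embryos of the sea lamprey, the jawless fish Petromyzon marinus. Embryos were of 6 ages, and each is called by its days after fertilization, from D1 and D2 over D2.5 and D3 to D4 and then D5. Embryos of all ages were reared in diluted Holfretter's solution at one temperature, and no genotype, strain or treatment is given for them. Each age had 3 biological replicates. The 3 testes lanes were technical replicates and counted as 1 sample with no test, and the labels do not say how many animals the testes came from. A whole embryo mixes every cell type, so fewer cells with a transcript and less of it per cell cannot be told apart. RNA was counted on the NanoString nCounter, where a barcoded probe binds a transcript and the barcodes are counted without amplification.

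The target probes summed to between 504 and 15415 counts in an embryo lane and between 450972 and 473907 in a testes lane. A probe was called above background when its count exceeded the mean + 2 SD of the 8 negative controls of its lane, which was 7.78 to 23.2 counts in embryos and 127 to 136 in testes. Levels are given as scaled counts, the count divided by a lane factor with a mean of 1. Among embryos the factor came from the reference probes EF1A_A and HCFC-1, and across all 21 lanes from HCFC-1 alone, since these were above background in every lane compared. The column names begin with 3 different pairs of a date and a set label, called runs here, though no label says what they stand for. D1 to D3 are in the first, D4 and D5 in the second and testes in the third. The lanes D4 a and b and D5 a and b have no replicate number. Of these, D4 a and both D5 lanes share a tag in their column names, whose meaning the sources do not give, so whether they are independent of each other was not settled. Averaging log2(scaled count + 1) over all tested probes gave a panel level per lane, which was 7.03, 6.53 and 6.50 in these 3 lanes against 5.79 in D4 lane b and 4.03 and 3.49 in replicate 1 of D4 and of D5. The target counts of D5 lanes a and b differed from each other beyond sampling noise (chi-square test, p = 2.4e-08), though by less than from D5 replicate 1 (chi-square of 2.73 per degree of freedom against 71.9 and 79.2). D4 lanes a and b, of which only a carries the tag, were similarly close, at 2.90 per degree of freedom. They stood at 53.2 and 22.8 from D4 replicate 1, so such closeness was not particular to lanes with the tag. The testes lanes did not differ beyond sampling noise (chi-square tests, p of 0.106 to 0.673). D1 replicate 2 and D2 replicate 3 were the shallowest lanes, with 504 and 589 target counts. Of germ-cell markers, Piwi-2 was above background in all 3 D1 lanes and in no testes lane, and Piwi-1 in 2 of 3 D1 lanes and all testes lanes. The meiotic helicase HFM1, a further such marker, went the other way from Piwi-2. It was above background in 0 of 3 D1 lanes and in all 3 testes lanes, at 6015, 5879 and 5815 counts. Myosin-7B was the only muscle gene on the panel.

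The 4 probes split into those with signal in embryos and those without. comp292635_9 was above background in 16 of 18 embryo lanes and comp292635 in 12 of 18. comp288706 was above it in 2 of 18, D2.5 replicate 3 and D5 lane b, and the myosin-7B probe in none. All 4 were above background in every testes lane, as were 42 of the 43 target probes. In every embryo lane only 1 of the 43 was, so detection in testes is no trait of these 4 probes. A probe was tested across embryo stages if above background in at least 3 embryo lanes, which kept comp292635_9 and comp292635 among 38 of the 43 target probes.

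**Figure D1:**
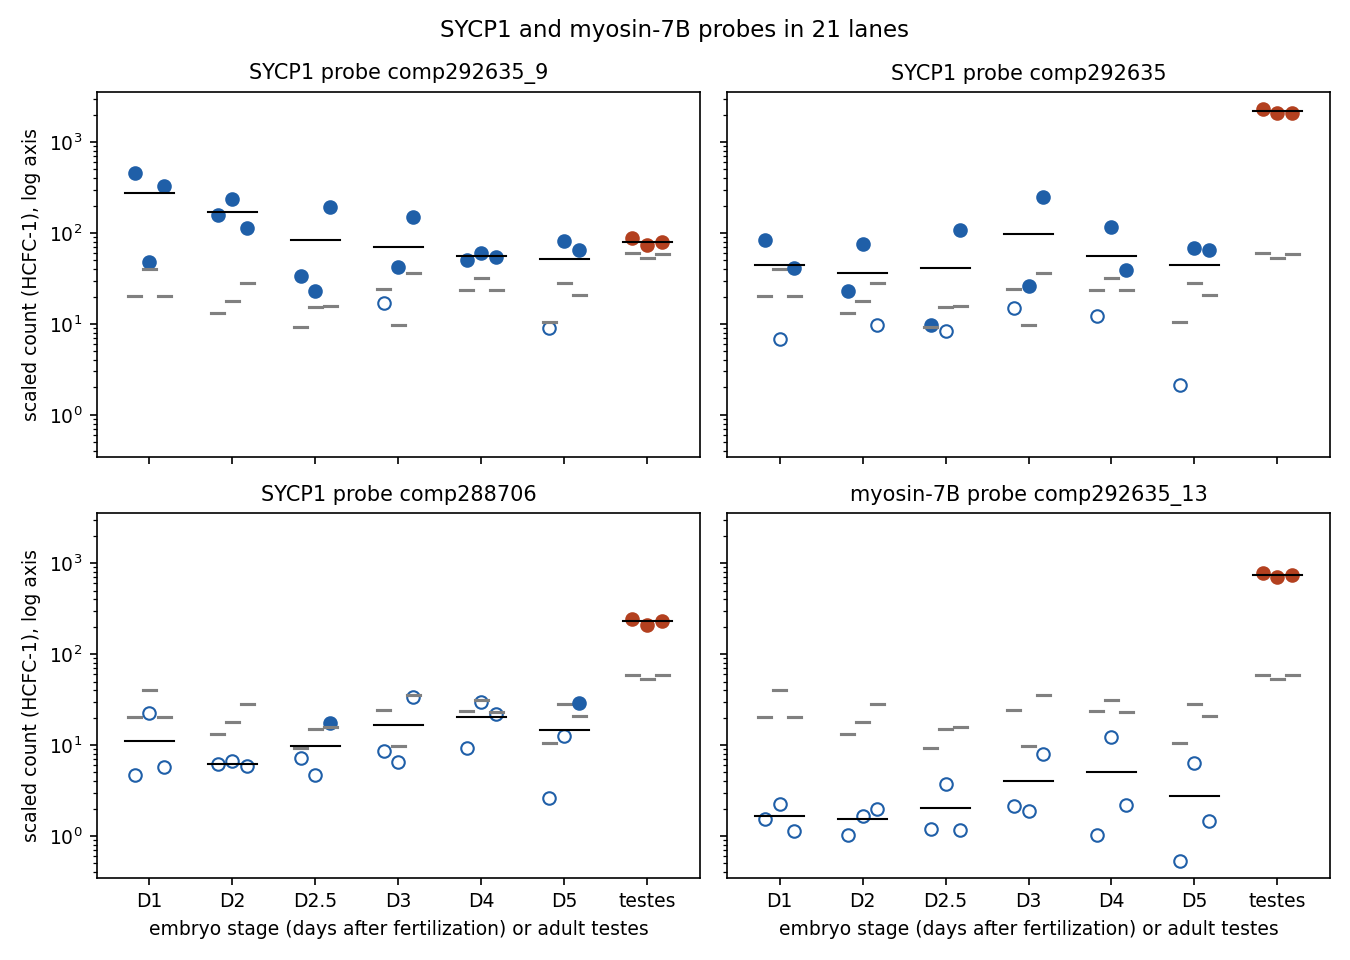
Scaled counts (HCFC-1 scaling, log axis) of the 4 probes by embryo stage and in adult testes. Each point is 1 lane, filled where above background and open where not, grey dashes are the background of each lane, and black lines are means of the 3 lanes. comp292635_9 was highest at D1, whereas the other 3 probes were highest in testes.

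The SYCP1 probe comp292635_9 had its highest level in the youngest embryos. Its raw counts were 294, 21 and 286 in D1 replicates 1 to 3, and the scaled counts of these lanes were 352, 44.8 and 236. At D2 the scaled counts were 126, 153 and 139, and all 3 D2 lanes lay inside the wide D1 range. At D2.5 the lanes had 21.1, 16.1 and 119 scaled counts, with replicate 3 far above the others. The means went from 211 ± 155 at D1 and 139 ± 13.6 at D2 to 51.9 ± 57.7 at D2.5 (SD, n = 3 each). At D3, D4 and D5 the means were 43.2 ± 36.2, 41.2 ± 3.97 and 41.9 ± 26.1 scaled counts (SD, n = 3 each). These last 3 stages did not differ beyond their spread, and neither did D1 and D2. The lanes were 16.6, 28.4 and 84.4 at D3, 45.5, 37.7 and 40.4 at D4, and 12.7, 63.0 and 50.1 at D5. D3 replicate 1 and D5 replicate 1 were below background.

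comp292635_9 fell between D1 and D3, a comparison that lies within 1 run, with an edgeR log2 fold change of −2.28 (SE 1.02, adjusted p = 0.0338). Of the 38 tested probes 78.9% passed this test, 76.3% as rises and 2.63%, comp292635_9 alone, as a fall. In D1 replicates 1 to 3, however, only 6, 3 and 7 of all target probes were above background. A probe below background at D1 could hardly be called as a fall. Being the only fall is thus largely fixed by which probes had signal at D1. Without D3 replicate 3 the panel had 19 calls in place of 30. D1 replicate 2, at 44.8 scaled counts, lay inside the D3 range, so the groups overlapped. The edgeR call ended without D1 replicate 1 or 3 (adjusted p = 0.136 and 0.0549), without D3 replicate 1, 2 or 3 (0.184, 0.115 and 0.0503), without either unnumbered lane of D4 (0.0721 and 0.0696) or of D5 (0.0792 and 0.0975), with the first run alone (0.0843), and without the 3 lanes of the shared tag (0.0737). The fold change stayed negative under all 36 alternatives, of which 17 passed the threshold. Many of these could not turn the sign, since leaving out a lane of a stage other than D1 and D3 left the fold change at −2.28.

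From D1 to D5 the edgeR log2 fold change of comp292635_9 was −2.33 (SE 1.02, adjusted p = 0.0397), with 65.8% of the 38 probes called, 63.2% as rises and 2.63% as falls. Here too, few probes had signal at D1 from which to fall. The 25 calls went to 14 and 13 without D1 replicates 1 and 3, and to 16 without D5 lane a. D1 and D5 were read in different runs, which cannot be told apart from the stage here. Without the 3 lanes of the shared tag only D5 replicate 1 remained at D5, at 17 counts and below background, and no probe was called. The edgeR call was lost when any 1 of 9 lanes was dropped: D1 replicates 1 and 3 (adjusted p = 0.143 and 0.0683), D3 replicates 1 and 3 (0.0669 and 0.0637), the unnumbered D4 lanes a and b (0.0732 and 0.0708), and the D5 lanes, numbered 1, a and b (0.108, 0.104 and 0.149). Over all 6 stages at once comp292635_9 did not pass (edgeR adjusted p = 0.0547), while 52.6% of the tested probes did; that count of 20 was 0 without D1 replicate 1 or D1 replicate 3, and 4 without D1 replicate 2. With EF1A_A alone as the reference comp292635_9 passed (edgeR adjusted p = 0.0404), and with HCFC-1 alone it did not (edgeR adjusted p = 0.142). Of 33 alternatives, 11 passed.

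The second tested SYCP1 probe, comp292635, showed no such fall on this scaling. Its scaled counts were 64.7, 6.41 and 29.7 at D1, 18.0, 49.6 and 12.02 at D2, and 6.03, 5.80 and 66.1 at D2.5. They were 14.6, 17.7 and 141 at D3, 10.9, 72.1 and 29.1 at D4, and 2.99, 53.1 and 49.0 at D5. At each stage 2 of the 3 lanes were above background, and all 6 stages overlapped. The means were 33.6 ± 29.4, 26.5 ± 20.2, 26.0 ± 34.7, 57.7 ± 71.9, 37.4 ± 31.4 and 35.0 ± 27.8 from D1 to D5 (SD, n = 3 each). No neighbours in the order of these means differed beyond their spread, and the highest mean, at D3, rested on replicate 3. The edgeR log2 fold change was 0.77 (SE 1.25, adjusted p = 0.553) from D1 to D3 and 0.043 (SE 1.25, adjusted p = 0.972) from D1 to D5, and over the 6 stages the adjusted p was 0.971.

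Between successive stages neither tested SYCP1 probe passed, and neither did any other target probe (edgeR). At an unadjusted p under 0.05, edgeR gave 8 of 38 probes for D2 vs D1 and 0 for the later steps. After adjustment DESeq2 gave 3 calls for D2 vs D1 and limma 0, and both gave 0 later. The largest step of comp292635_9 was that from D2 to D2.5, with an edgeR log2 fold change of −1.42 (SE 0.99, adjusted p = 0.422).

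Both tested SYCP1 probes lay at the low end of the panel's changes. The median log2 fold change of the 38 probes was 4.36 from D1 to D3 and 3.50 from D1 to D5. In D1 replicates 1 to 3 only 6, 3 and 7 of all target probes were above background. Most D1 values behind these medians were thus below background, and the medians and distances from them are not measured sizes. The low ranks of the SYCP1 probes carry the same limit, since a probe below background at D1 had little room to fall. With the negative control mean subtracted, the D5 vs D1 median was 7.50. comp292635_9 was the lowest of the 38 in both comparisons, and comp292635 was the third lowest for D3 vs D1 and the second lowest for D5 vs D1. The level of the whole panel depended on the scaling, since TMM gave a D5 vs D1 median of −0.46 and the size factors of DESeq2 one of −0.17, both being set by the tested probes. comp292635 turned with it, to −4.35 with TMM (edgeR adjusted p = 5.3e-05) and −4.12 with DESeq2's size factors (edgeR adjusted p = 9.2e-05). With the TMM scaling the panel had 2 rises and 10 falls for D5 vs D1, against 24 and 1. Relative to the panel median, the log2 fold change of comp292635_9 for D5 vs D1 was −5.84, and −10.01 to −4.81 under the other scalings, background correction and tests tried. For comp292635 the difference from the median was −3.46, and −7.42 to −2.87 over the same settings.

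**Figure D2:**
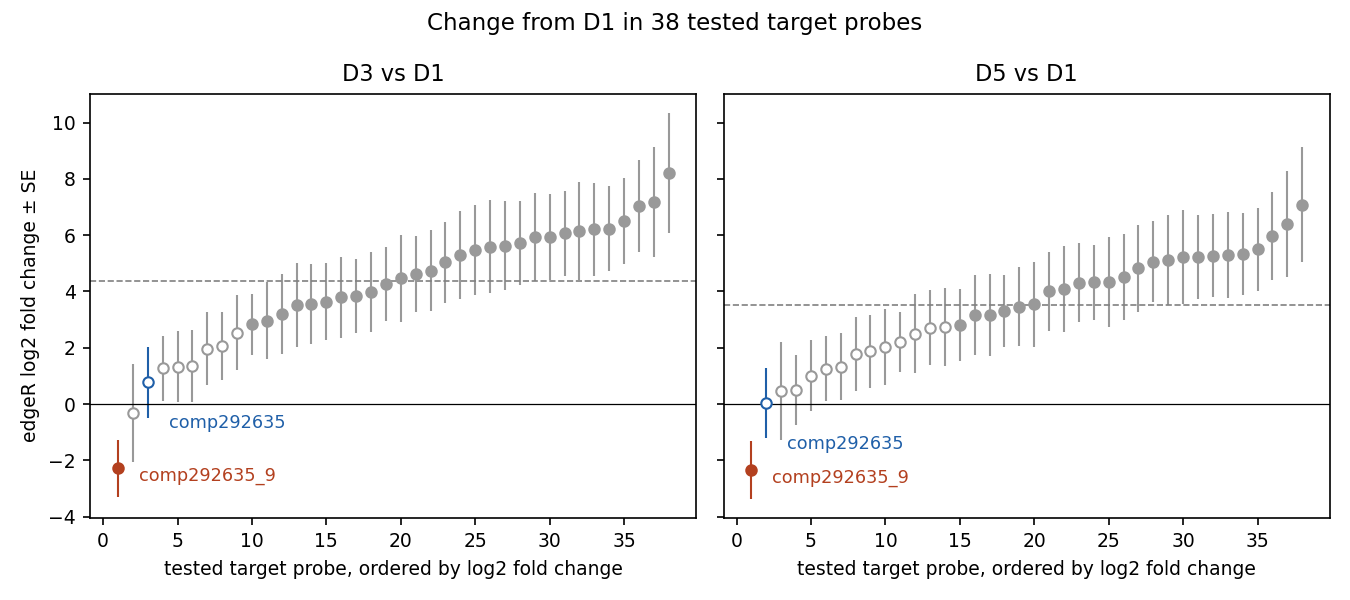
edgeR log2 fold changes (± SE) of the 38 tested target probes from D1 to D3 and from D1 to D5, in ascending order. Filled points passed an adjusted p of 0.05, the dashed line is the median, and the SYCP1 probes are coloured; comp292635_9 is the lowest point in both panels, at −2.28 and −2.33.

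Most tested probes followed the panel level of the lane, with a median Pearson r of 0.953 between a probe and the mean of the others over the 18 embryo lanes. comp292635_9 had the lowest r of the 38, −0.16, and comp292635 the third lowest, 0.66. The lanes share their depth, reference factor and stage, so these values describe the lanes and carry no test.

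**Figure D3:**
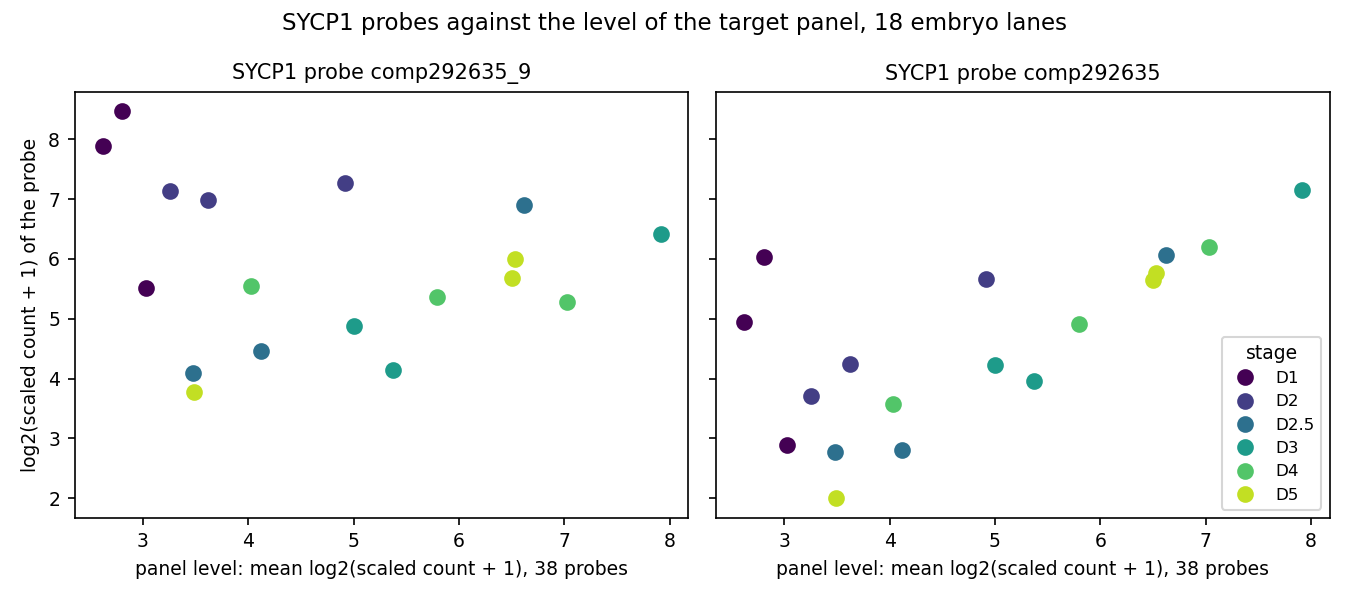
Level of comp292635_9 and comp292635 (log2 of the scaled count + 1) against the panel level, the mean over the 38 tested probes, in the 18 embryo lanes, coloured by stage. The D1 lanes have panel levels of 2.62 to 3.03 but hold 2 of the highest comp292635_9 values.

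The share of comp292635_9 among all target counts needs no reference probe. It was 17.6%, 4.17% and 11.997% in the D1 lanes and 6.71%, 4.80% and 9.85% in the D2 lanes. It was 1.09%, 1.11% and 1.66% at D2.5, 0.518%, 0.962% and 0.487% at D3, and 2.83%, 0.396% and 1.00% at D4. At D5 it was 0.536%, 0.852% and 0.716%, and in testes 0.0418%, 0.0377% and 0.0408%. Every D1 and D2 lane lay above every lane of the later stages and of testes. A share also falls when the other probes rise, as most of this panel did.

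The ratio of the 2 tested SYCP1 probes within a lane does not depend on how the lane is scaled. It was computed as the log2 of comp292635_9 over comp292635, with 1 count added to each. The D1 lanes gave 2.42, 2.46 and 2.96 and the D2 lanes 2.75, 1.61 and 3.30. The D2.5 lanes followed with 1.69, 1.38 and 0.84, and the D3 lanes with 0.17, 0.67 and −0.73. No D1 lane overlapped a D2.5 or D3 lane. At D4 the lanes had 1.97, −0.92 and 0.45 and at D5 1.85, 0.24 and 0.032. The stage means were 2.61 ± 0.30, 2.55 ± 0.86, 1.30 ± 0.43, 0.035 ± 0.71, 0.50 ± 1.45 and 0.71 ± 0.99 (SD, n = 3 each). In 16 of the 18 embryo lanes the count of comp292635_9 was the higher of the pair, the exceptions being D3 replicate 3 and D4 lane a. Within stages the ratio partly followed the panel level of the lane. At D2, D3 and D4 the lane with the highest panel level (4.91, 7.91 and 7.03) had the lowest ratio. Their lanes with the lowest level (3.25, 5.00 and 4.03) had the highest ratio. D1, D2.5 and D5 kept this order only in part. The D1 lanes had the lowest panel levels of all, 2.62 to 3.03. How far the difference between stages goes with the panel level was not tested.

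The ratio differed between the 6 stages beyond the spread of the lanes (permutation test, 100000 resamples, p = 0.0168). A test chosen after seeing the data, within the first run alone over its 4 stages, gave p = 0.0023 (permutation test). On raw counts with 1 added, the 2 probes thus changed unequally between stages, which does not say which of them changed. After background subtraction and on the deposited signal values the difference did not pass, as given below. Leaving out the 3 lanes of the shared tag leaves 1 D5 lane, below background for both probes, so no p-value is given for that setting. The D3 mean minus the D1 mean was −2.58 and the D5 mean minus the D1 mean −1.91 on the log2 scale (exact permutation test, two-sided, p = 0.1 for each, the smallest that 3 against 3 lanes can give). In 6 of the 18 embryo lanes, 1 at each stage, 1 or both probes were below background. With the mean of the negative controls subtracted, the permutation p over the 6 stages was 0.124, and on the deposited signal values 0.114.

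**Figure D4:**
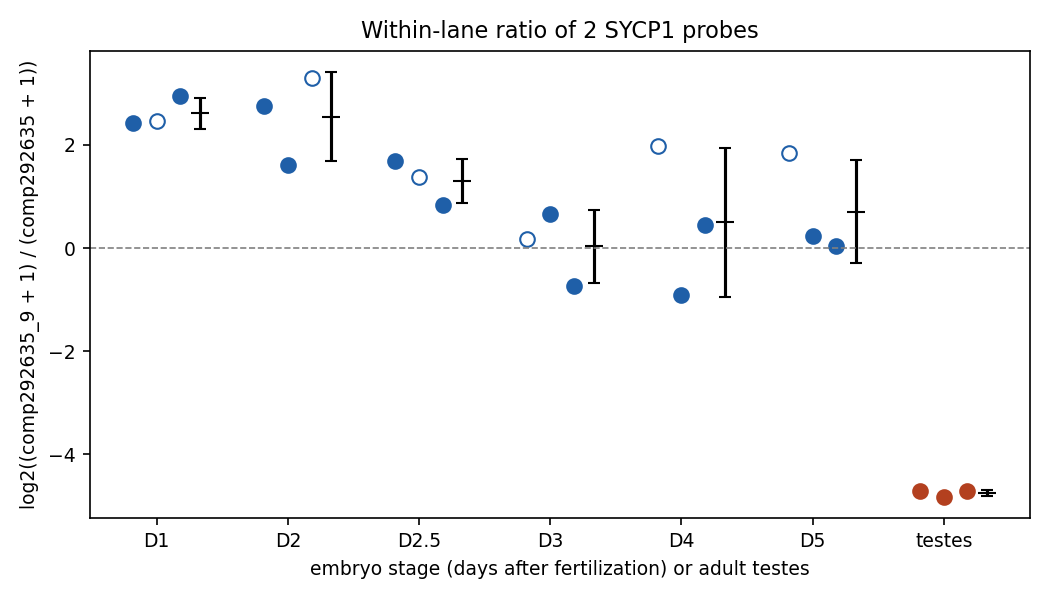
Within-lane log2 ratio of comp292635_9 to comp292635 (1 count added to each) by stage. Points are lanes, open where 1 or both probes were below background, and bars are the mean ± SD of 3 lanes; D1 averaged 2.61, D3 0.035 and the technical testes lanes −4.75.

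In adult testes the order of the 2 probes was turned. comp292635 had 5231, 4947 and 4853 counts in the testes lanes, and comp292635_9 had 198, 174 and 184. The log2 ratio was −4.75 ± 0.061 (SD, 3 technical lanes), below every embryo lane, of which the lowest, D4 lane a, had −0.92. The ratio was thus 14.2-fold lower than in that embryo lane. comp292635_9 stood only 1.40-fold over the testes background, and subtracting the mean of the negative controls moved the testes ratio to −5.32.

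The testes levels were set against the embryo stage with the highest mean, with at least 4-fold as a rule of size and no test. By this rule 38 of the 43 target probes, 88.4%, were higher in testes. comp292635 had 2171 ± 140 scaled counts in testes (SD, 3 technical lanes) against 97.6 at D3, which is 22.2-fold higher, a log2 ratio of 4.48 that the scaling moved to 5.86 with positive controls, 7.90 with the EF1A sum and 8.59 on the deposited signal; the median over all 43 probes was 16.4-fold. Without D3 replicate 1, 2 or 3 the log2 ratio of comp292635 was 3.97, 4.03 and 5.28, the last against D4, which then had the highest mean. For comp292635_9 the testes mean was 80.3 ± 7.56 scaled counts against 277 at D1. That is 3.45-fold lower in testes than at D1, a log2 ratio of −1.79. Without D1 replicate 1, 2 or 3 the log2 ratio to D1 was −1.22, −2.29 and −1.65, and with positive controls for scaling it was −0.73. For a fall, the rule asked for at least 4-fold below the lowest embryo stage, which 0 of the 43 target probes met. Of the other stages, D2 at 169 and D2.5 at 82.9 scaled counts had means above that of testes, and D3, D4 and D5 at 70.1, 55.4 and 51.8 means below it. The direction against D1 turned when the sum of EF1A_A and EF1A_B was used for scaling (log2 ratio of testes over D1 0.92) and on the deposited signal values (1.01). Of the 43 probes, comp292635_9 had the second lowest ratio of testes to embryos on the HCFC-1 scaling. The testes lanes formed a run of their own, so tissue and run cannot be told apart in any of these levels.

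The remaining SYCP1 probe, comp288706, was measured mainly in testes. It had 550, 503 and 539 counts there, 4.01-fold over background on average. Its embryo counts lay between 3 and 20, and the 2 lanes above background had 15 and 20. The highest embryo mean was at D4, where every lane was below background, so testes were set against the D4 background. The testes level was 8.78-fold that background, a log2 bound of 3.13 for D4 only. It was 4.61 with positive controls, 5.92 with the EF1A sum and 3.09 with the highest mean background of any stage. D5 lane b, which was above background, had 29.2 scaled counts, more than the mean D4 background of 26.2. This bound was in place 36 from the highest among the 43 target probes, under their median of 16.4-fold. Being a lower bound, it does not fix the true place. Within testes lanes it had 0.106 ± 0.0047 counts per count of comp292635 (SD, 3 technical lanes). In the 12 embryo lanes with comp292635 above background, that ratio had a value in 2, 0.163 and 0.455, and was bounded from above in the other 10 at 0.143 or higher. The 2 values rest on 15 and 20 counts of comp288706 against backgrounds of 13.6 and 14.3. They are too close to background to show a ratio above that of testes. None of the bounds lay under the testes ratio, so a difference in this ratio was not detectable in these 10 lanes.

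The myosin-7B probe, which shares the stem comp292635, was read in testes only. Its counts in the testes lanes were 1760, 1691 and 1709, 13.01-fold over background. In embryos it had between 1 and 7 counts, with the lowest count of the file, 1, in 13 of 18 lanes. The testes level was 28.4-fold the D4 background, a log2 bound of 4.83 for D4. It was 6.30 with positive controls, 7.62 with the EF1A sum and 4.78 with the highest mean background of any stage. This bound was in place 4 from the highest among the 43 target probes, whose median was 16.4-fold. Within testes it had 0.343 ± 0.0080 counts per count of comp292635 (SD, 3 technical lanes). In D3 replicate 3, the embryo lane with the most counts of comp292635 at 125, the myosin-7B probe had 4 counts, and the lane's background bounds the ratio at 0.143. The bound lay under every testes ratio in 6 of the 12 embryo lanes with comp292635 above background. These 6 bounds ran from 0.143 to 0.325 against a lowest testes ratio of 0.337, and leave out the counting error of comp292635, which had 44 to 125 counts there. Which cells of the testes carried the signal of the myosin-7B probe was not tested, since the panel holds no other muscle gene. Whether the probe read a transcript of its own or the one read by comp292635 was not tested either.

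The probes most like each tested SYCP1 probe were taken by Pearson correlation of log2(scaled count + 1) over the 18 embryo lanes. For comp292635_9 they were comp292635 (r = 0.59), aspartate aminotransferase (comp293586, which moves amino groups between amino acids and keto acids, 0.30) and the unannotated comp289786 (0.16), against a median of −0.19 over the other 37 tested probes. For comp292635 they were comp289786 (0.83), the X-linked retinitis pigmentosa GTPase regulator (comp287366, a protein of the cilium, 0.73) and the unannotated comp30676 (0.73), with comp292635_9 in place 22 and a median of 0.60. After the lane mean of the tested probes was subtracted, the 2 SYCP1 probes were each other's closest, with r = 0.89. For comp292635_9 this was so before as well, and only the closest probe of comp292635 changed. Both follow the panel less than most probes, so subtracting the same lane mean from both builds part of this value in. Next for comp292635_9 came aspartate aminotransferase (0.82) and the protein phosphatase 1D probe (comp267762, 0.78), and for comp292635 comp289786 (0.74, but a Spearman rho of 0.158) and the unannotated comp3124724 (0.58). Lanes share depth and scaling, and no test belongs to these values.

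Other genes on the panel that matched the meiosis list were HFM1, a helicase of meiotic crossing over, and the MAD2L1-binding protein, which acts on the spindle checkpoint. The 4 tested members of the meiosis list are these 2 genes and the SYCP1 probes comp292635_9 and comp292635. From D1 to D5, 1 rose, 1 fell, which was comp292635_9, and 2 did not pass (edgeR). Of all tested probes 65.8% were called, 63.2% as rises and 2.63% as falls. The list's median log2 fold change of 0.65, against 3.50 over all 38, thus rests partly on the SYCP1 values already given. HFM1 (comp293440) was the one that rose, by 4.01 on the log2 scale from D1 to D5 (SE 1.41, edgeR adjusted p = 0.0115), whereas the MAD2L1-binding protein (comp280581) had 1.26 (SE 1.14, edgeR adjusted p = 0.301). All D1 lanes of HFM1 were at 1, the lowest count of the file and below background, so the size of its fold change is not a measured one. HFM1 was above background in no D1 or D2 lane and entered the test through later stages, so only a rise could be called. At D5 it had 3 counts in replicate 1, below background, and 26 and 30 in lanes a and b. The call thus rests on these 2 lanes of the shared tag, whose independence was not settled. The germline genes Piwi-2 and Piwi-1, which silence transposons and were read as reference probes outside the test, had 57.0 ± 15.4 and 42.4 ± 14.3 scaled counts at D1. At D3 they had 13.6 ± 7.51 and 7.94 ± 2.87 (SD, n = 3), with no lane above background. At D5 Piwi-2 had 18.9 ± 4.76, with 1 of 3 lanes above background, and Piwi-1 26.4 ± 3.14, with all 3 lanes above it (SD, n = 3).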

How the data were processed

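Raw counts were deposited by the authors as whole numbers per probe and lane, 63 probes in all, exported from nCounter lane files per the file headers. A second deposited table holds normalized signal values, made with software and settings not stated in the labels or headers; it served only as an alternative. Lanes were matched to samples by column name, and 4 D4 and D5 lanes matched only a stage. Target probes above background (mean + 2 SD of 8 negative controls) in at least 3 of 18 embryo lanes entered a robust quasi-likelihood fit over all embryo lanes with stage as its factor (edgeR 4.0.16 in R 4.3.3). Each lane's factor was the geometric mean of those reference probes that exceeded background throughout the lanes compared. P-values were two-sided and Benjamini-Hochberg adjusted over the 38 tested probes, with a threshold of 0.05. The standard error is the log2 fold change over the square root of F. limma 3.58.1 (on log2 of the scaled count + 1) and DESeq2 1.42.0 were alternatives, as were other scalings, no filter, background subtraction and leaving out each lane.

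A mean over a stage below background in all its lanes entered a testes ratio at that stage's mean background, which gives a lower bound for that stage. Named besides the 4 probes were the 3 tested probes most correlated with each tested member, before and after subtracting the lane mean, and probes of the meiosis, germline and muscle lists. Members and lists were chosen with earlier results of these data known. Whether replicate numbers pair samples was checked from correlations of deviations from stage means: for D1 with D3 all 3 correlations were negative (−0.43 to −0.29), and only D2.5 with D3 had all above 0.1.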

Additional observations from a re-analysis of the deposited data

How the results depend on the processing

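Leaving out lanes of stages outside a comparison hardly moves its fold change, so many of the alternatives below could not turn a sign. The log2 fold change of comp292635_9 stayed below 0 in all 34 alternatives for D5 vs D1 and all 36 for D3 vs D1, with 15 and 17 past the threshold. For D5 vs D1 it missed the threshold with EF1A_A alone (−2.20, edgeR adjusted p = 0.0546), HCFC-1 alone (−2.42), no filter (−2.33), the negative control mean subtracted (−2.50), limma (−2.14), limma on the deposited signal (−2.03), the 2 stages only (−2.33), and the numbered lanes with the replicate block (−3.80) and without it (−4.04). The numbered lanes hold 1 D5 lane, D5 replicate 1, at 17 counts of comp292635_9 and 4 of comp292635 and below background for both. Their D5 vs D1 values therefore rest on that lane, assumed to vary like the other groups, and say nothing of stability; the same holds without the 3 lanes of the shared tag (−4.04), chosen after seeing the data. For D3 vs D1 it missed with positive controls only (−2.18), HCFC-1 alone (−1.98), no filter (−2.28), limma (−2.14), the 2 stages only (−2.28), the numbered lanes with the replicate block (−2.39) and without it (−2.28), and, chosen after seeing the data, the first run only (−2.28), also with the block (−2.39), and without the 3 lanes of the shared tag (−2.28). Leaving out 1 lane gave −2.81 to −1.75 for D5 vs D1 and −3.21 to −1.70 for D3 vs D1. The adjusted p of comp292635_9 over the stages passed with TMM (6.1e-05), DESeq2 size factors (3.7e-05), EF1A_A alone (0.0404), the target sum (4.8e-10) and the DESeq2 test (0.0356), and ran from 0.0193 to 0.262 with 1 lane left out. It missed with HCFC-1 alone (0.142), positive controls only (0.135), no filter (0.131), the negative control mean subtracted (0.150), limma (0.198) and limma on the deposited signal (0.0946). In all, 11 of 33 alternatives passed. For comp292635, D5 vs D1 turned negative with TMM (−4.35), DESeq2 size factors (−4.12), positive controls only (−0.24), the target sum (−1.81), limma (−0.16), limma on the deposited signal (−0.090) and, chosen after seeing the data, without the 2 shallowest lanes (−0.43). With D5 replicate 1 as the only D5 lane it was −3.17 with the replicate block, −3.45 in the numbered lanes without it and −3.45 without the lanes of the shared tag. D3 vs D1 turned with TMM (−4.19), DESeq2 size factors (−4.15) and the target sum (−1.54). Leaving out 1 lane gave −0.43 to 0.92 and −1.06 to 1.64, and these 3 scalings gave adjusted p-values over the stages of 3.6e-05, 2.9e-05 and 0.0327. Each of them also called 1 successive step of the SYCP1 probes, against 0.

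Of 38 probes, 25 were called for D5 vs D1, but 12 with TMM, 15 with limma, 0 in each of the 3 fits with 1 D5 lane (with or without the replicate block), and 13 to 28 with 1 lane left out. The 30 for D3 vs D1 were 19 to 31 with 1 lane left out. The 20 over the stages were 6 with TMM, 9 with DESeq2 size factors, 0 with the negative control mean subtracted, 8 with limma, 13 with limma on the deposited signal, 5 with the replicate block, 0 without the 2 shallowest lanes, and 0 to 29 with 1 lane left out. The probe ratio over the 6 stages gave a permutation p of 0.124 with the negative control mean subtracted and 0.114 on the deposited signal. Over only the 4 stages of the first run, with the replicate block, an exact permutation test gave p = 0.0069. That test used raw counts with 1 added and was not run after background subtraction. The replicate numbers were not shown to pair the samples. The log2 ratio of testes to embryos was 4.61 with positive controls and 5.92 with the EF1A sum for comp288706, 7.90 with the EF1A sum and 8.59 on the deposited signal for comp292635, 7.62 with the EF1A sum for myosin-7B, and 0.92 and 1.01 for comp292635_9, where it turned. The deposited signal was not run for comp288706 and myosin-7B, whose ratios rest on a background bound in raw counts. EF1A_A was not above background in every testes lane, so the EF1A sum rests on a probe that the rule for references left out there. The cause of these shifts was not tested. Low counts limit the embryo lanes: the background of 7.78 to 23.2 counts exceeded comp292635 in 6 of 18 lanes.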
